A study of Mus musculus with 6 samples.

Results

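The NKR-P1 receptors and the Clr proteins they bind were described in natural killer (NK) cells knocked out for the microRNA genes Mir15a and Mir16-1. The set held 7 genes, the 4 receptor genes Klrb1a, Klrb1b, Klrb1c and Klrb1f and the 3 ligand-family genes Clec2d, Clec2g and Clec2i. It was chosen by gene symbol in the array's annotation, and 7 of 7 were measured among 19938 genes with an annotated symbol. Each had 1 probe set, and 0 probe sets with several symbols named any of them. The set was not chosen on the values described here, although its members were picked with earlier results of these data known.

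RNA came from NK cells sorted from the spleens of C57Bl/6 mice aged 8 to 12 weeks, directly after the spleens were taken, and was hybridised to Affymetrix mouse gene arrays. The sorted cells of both genotypes were YFP+, CD27+ and NK1.1+ and lacked CD3, so that YFP, a fluorescent reporter, marked the knockout and the control cells alike. The 2 groups were 15a/16-1FKO cells, called the knockout here, and Ctrl cells, called the control, with 3 arrays each. Neither the driver of the reporter nor that of the deletion is given in the sources used here. By the study's own account the 3 arrays per genotype are technical replicates, and a p-value here reflects how far those arrays scatter, whatever their source. The sex-linked transcripts given below differed between arrays of 1 genotype, which goes against repeats of a single RNA, so that it is not known whether the arrays of a genotype share animals. The question behind the comparison is what changes in CD27+ NK cells when these microRNA genes are lost. The series title names c-Myb, a transcription factor.

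NKR-P1 receptors are C-type lectin-like proteins on the surface of NK cells, and their ligands, the Clr proteins, are lectin-like proteins of the same gene complex. Some NKR-P1 receptors activate the cell through the adaptor Fc receptor gamma chain (Fcer1g), and others inhibit it through phosphatases such as SHP-1 (Ptpn6). Inhibition by NKR-P1B on meeting Clr-b is a form of missing-self recognition, in which cells that lose Clr-b become targets. In C57BL/6 mice NKR-P1C carries the NK1.1 epitope, the surface antigen by which these cells were sorted.

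The receptor and ligand genes lie intermingled on chromosome 6 (RefSeq, GRCm38.p6), away from chromosome 14, which carries Mir15a and Mir16-1. From Klrb1a to Clec2d RefSeq's gene table lists 17 protein-coding genes and pseudogenes, of which 12 were measured under their own symbol. The order of the members is Klrb1a, Klrb1c, Klrb1b, Clec2i, Clec2g, Klrb1f and Clec2d. Klrb1a, Klrb1b and Klrb1c are read from the minus strand and Klrb1f and the 3 Clec2 genes from the plus strand. Names in this family have shifted: the table lists Klrb1b also as an older name of Klrb1c, and gives both Clr-c and Clr-d for Clec2g. The symbols used here are those of the array annotation, whose 7 Entrez identifiers all led to the same symbols in the gene table.

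The mature microRNAs of the deleted locus are shown because they define the genotype. Sequences are from RefSeq (GRCm38.p6), 5′ to 3′, with the seed (bases 2 to 8) in capitals. The first is at chr14:61632075-61632096 and the second at chr14:61631936-61631957, both on the minus strand, while the third comes from the related cluster at chr3:69009775-69009796 on the plus strand.
mmu-miR-15a-5p: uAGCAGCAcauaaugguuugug
mmu-miR-16-5p: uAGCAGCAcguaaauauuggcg
mmu-miR-15b-5p: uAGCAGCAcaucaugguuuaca
The 3 sequences share 1 seed. The second is also encoded in the related cluster, at chr3:69009918-69009939.

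The genotype was visible in the targeted transcript. The Mir15a probe set read 7.14, 6.02 and 6.69 on the log2 scale in the control arrays and 4.37, 3.53 and 3.43 in the knockout arrays, with no overlap. It fell by 2.84 on the log2 scale (SE 0.31, adjusted p = 0.0296, limma with Benjamini-Hochberg adjustment over all 19938 genes). The call held under 10 of 15 alternatives and ended in the fits without knockout array 2 or 3 or control array 1 or 3 and with a covariate for sex-linked transcripts (limma adjusted p from 0.0545 to 0.184), while the difference lay between -3.14 and -2.58 in all 15. Over all genes 3 rose and 1 fell, which is 0.0201% of those tested. Olfactory receptor genes, which belong to sensory neurons, served as a gauge of background, and 95% of the 1027 measured had a mean under 4.13, called the background level here. All 8 of 8 NK markers lay above it, from Ncr1 to Eomes and Cd27, with array means of the list between 9.96 and 10.3 in the knockout and between 10.04 and 10.07 in the control. Of the T cell markers 3 of 6 lay above it, and these were Cd3d, Cd3e and Cd3g, with list means from 5.04 to 5.5 in the knockout and from 5.22 to 5.31 in the control. Above background were also 2 of 4 B cell, 2 of 7 macrophage, monocyte and dendritic cell, 4 of 5 neutrophil, 3 of 4 ILC1 and 0 of 1 erythroid markers. The ILC1 list (type 1 innate lymphoid cells) had means from 5.03 to 5.27 in the knockout and from 4.74 to 5.03 in the control, and the part of such cells in the values below was not tested. The balance of Xist over Y-linked transcripts was 0.66, 3.11 and 4.03 log2 units in the knockout and 6.72, -2.86 and 3.66 in the control. The values were spread out in both genotypes, and only that of control array 2 was negative.

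No NKR-P1 or Clr gene passed the threshold between the genotypes. Of the 7 members 0 rose and 0 fell at an adjusted p under 0.05, where 0.015% of all genes rose and 0.00502% fell (0.0201% together), and 0 of 7 had an unadjusted p under 0.05, beside 3.47% of all genes (limma). The differences, knockout minus control, ran from -0.02 to 0.27 on the log2 scale, with a median of 0.06 beside -0.01 over all genes. They were positive for 6 members and negative for 1, Klrb1b, beside 9549 positive and 10389 negative over all genes. Over the genes above background, where 6 of the members lay, 5555 differences were positive and 5337 negative, with a median of 0.0. The signs of Klrb1a, Klrb1b, Klrb1c, Clec2d and Clec2i turned under at least 1 of the alternatives given below. For the 6 members above background the 95% intervals lay between -0.35 and 0.61, so that the largest change left inside any of them was 1.52-fold, for Klrb1f. In 7 of 7 members the arrays of 1 genotype spanned a wider range than the difference between the genotypes. In bulk samples fewer cells with a transcript and less of it per cell cannot be told apart.

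**Figure D1:**
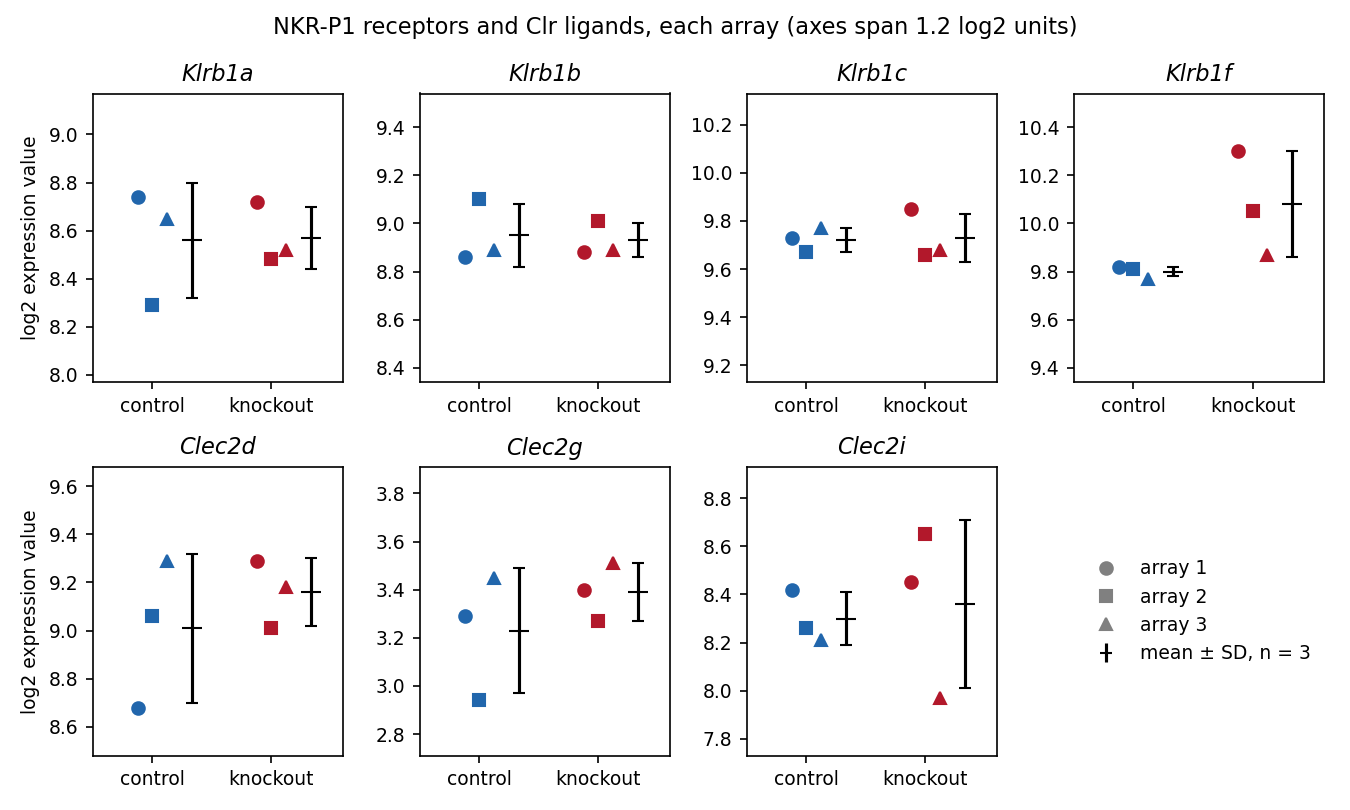
Log2 expression values (vertical axes, each spanning 1.2 log2 units) of the 7 genes in the 3 control arrays (blue) and the 3 knockout arrays (red), with mean ± SD (n = 3) in black and the array number as the symbol's shape. The genotypes overlap in every panel but that of Klrb1f, where the lowest knockout array (9.87) sits just above the highest control array (9.82).

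Klrb1c, the gene of the NK1.1 antigen on which the cells were sorted, had the steadiest values of the members. It read 9.85, 9.66 and 9.68 in the knockout and 9.73, 9.67 and 9.77 in the control. The knockout spanned 0.19 and the control 0.10, and the highest and the lowest value both came from knockout arrays. The difference was 0.01 (SE 0.13, 95% interval -0.29 to 0.31, adjusted p = 0.999 by limma), or 1.01-fold with an interval of 0.82 to 1.24. Its pooled SD over the genotypes was 0.08, and 5.55% of all genes had a smaller one. The next in steadiness was Klrb1b, with a pooled SD of 0.11. Because cells of both genotypes were selected for NK1.1, cells without this antigen are left out of the values of Klrb1c.

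Klrb1a encodes NKR-P1A, an activating receptor, and its promoter window is the one most like that of Klrb1c. Its values were 8.72, 8.48 and 8.52 in the knockout and 8.74, 8.29 and 8.65 in the control. The lowest value of all was that of control array 2, and the other control arrays lay near the top of the knockout's range. The difference was 0.01 (SE 0.16, 95% interval -0.35 to 0.37, adjusted p = 0.999 by limma). Without control array 2 it was -0.12.

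Klrb1b encodes NKR-P1B, the inhibitory receptor for Clr-b. It read 8.88, 9.01 and 8.89 in the knockout and 8.86, 9.10 and 8.89 in the control. Array 2 was the highest in both genotypes and the other 4 arrays lay within a few hundredths of each other. The difference was -0.02 (SE 0.14, 95% interval -0.33 to 0.28, adjusted p = 0.999 by limma), a ratio of 0.983 with an interval of 0.795 to 1.22. Its values ran against those of Klrb1a: in control array 2 Klrb1a was 0.27 below its own mean and Klrb1b 0.16 above. Across the 6 arrays Pearson's r between them was -0.91, a description of 6 arrays that were normalized together.

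Klrb1f encodes NKR-P1F, a receptor for Clr-g and related Clr proteins, and was the only member whose genotypes did not overlap. The knockout arrays read 10.3, 10.05 and 9.87 and the control arrays 9.82, 9.81 and 9.77. The 3 control values were nearly equal, whereas the knockout values were spread over 0.43, and the gap between the genotypes was 0.05. Means were 10.08 ± 0.22 in the knockout and 9.80 ± 0.02 in the control (SD, n = 3 each). The difference of 0.27 (SE 0.15, 95% interval -0.06 to 0.61) did not pass (unadjusted p = 0.099, adjusted p = 0.999, limma). A difference at least as large in either direction was found in 12.1% of all genes, and 1 of 7 members (14.3%) without overlap stood beside 8.33% of all genes. All knockout arrays were higher in 3.68% of all genes and lower in 4.65%. Knockout array 1 held the highest value, and without it the difference was 0.16. Without knockout array 3 it was 0.37, with an unadjusted p of 0.0421 and an adjusted p of 0.991 (limma).

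Clec2d encodes Clr-b, the ligand of NKR-P1B, which is found on many haematopoietic cells. It read 9.29, 9.01 and 9.18 in the knockout and 8.68, 9.06 and 9.29 in the control. Control array 1 was the lowest, 0.41 under the gene's mean, while control array 3 equalled the highest knockout array. The difference was 0.15 (SE 0.18, 95% interval -0.25 to 0.55, adjusted p = 0.999 by limma). It rested on control array 1, since it was -0.02 without that array. Side by side, the receptor Klrb1b differed by -0.02 and its ligand Clec2d by 0.15, both inside the spread between arrays.

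Clec2i encodes Clr-g, a ligand of NKR-P1F. Its values were 8.45, 8.65 and 7.97 in the knockout and 8.42, 8.26 and 8.21 in the control. The knockout held both the highest and the lowest array, and the control lay between them. The difference was 0.06 (SE 0.18, 95% interval -0.35 to 0.48, adjusted p = 0.999 by limma), and it was -0.08 without knockout array 2 and 0.25 without knockout array 3. Of all genes 70.6% had a smaller pooled SD than the 0.26 of Clec2i. Beside its receptor Klrb1f, at 0.27, this ligand thus had the smaller difference, and a difference between the pair was not tested.

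Clec2g, a further Clr gene, was the only member under background. It read 3.40, 3.27 and 3.51 in the knockout and 3.29, 2.94 and 3.45 in the control, all under 4.13. Control array 2 was again the lowest. The difference was 0.17 (SE 0.16, 95% interval -0.20 to 0.54, adjusted p = 0.999 by limma), and 0.02 without control array 2. At this brightness a change of the transcript could not be measured.

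**Figure D2:**
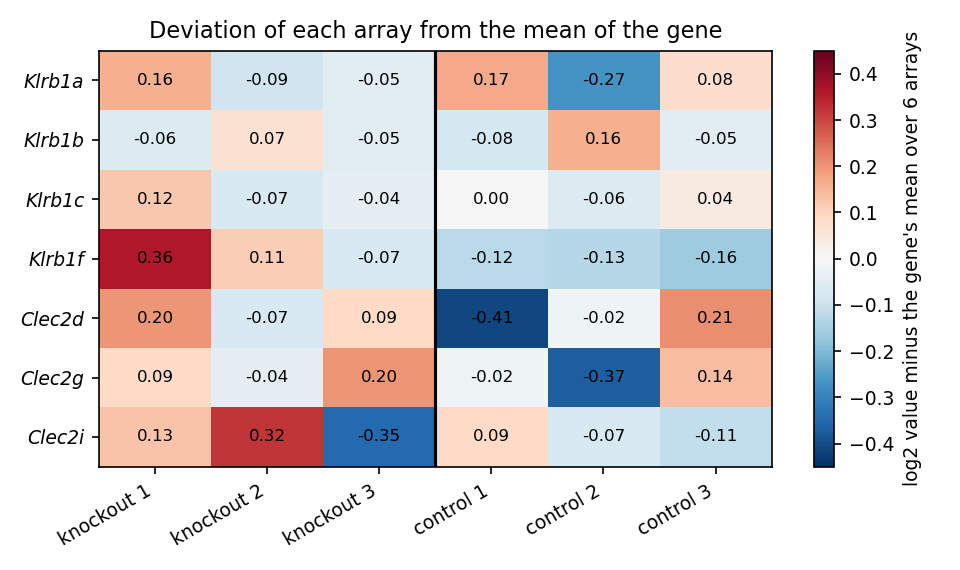
Log2 value of each array minus the gene's mean over the 6 arrays (colour and printed value), with genes in rows and arrays in columns and a black line between the genotypes. Klrb1f alone is below its mean in all 3 control arrays with every knockout array higher, control array 2 is low for Klrb1a (-0.27) and Clec2g (-0.37) and high for Klrb1b (0.16), and knockout array 1 is above the mean for every member but Klrb1b.

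The members differed from one another in which arrays were high, so that they did not move as a block. Knockout array 1 was the highest of the 6 for 2 members, Klrb1c and Klrb1f. Control array 2 was the lowest for 2 others, Klrb1a and Clec2g. Among the 15 pairs of members above background Pearson's r over the 6 arrays ran from -0.91, for Klrb1a with Klrb1b, to 0.74, for Klrb1a with Klrb1c. Receptor and ligand gave r = -0.03 for Klrb1b with Clec2d and r = 0.52 for Klrb1f with Clec2i. These values describe 6 arrays and carry no test.

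Other genes with the most similar profiles were sought among 10891 genes above background by the root mean square distance between values centred on each gene's mean. Nearest to Klrb1f, which itself lay 0.186 from its mean by this measure, were Majin (distance 0.0457) and Ahctf1 (0.0506), with differences between genotypes of 0.26 and 0.19. Klrb1a was closest to Brip1os (0.0337) and Hspa13 (0.0346). Klrb1b had Glis2 (0.0196) and Anxa2 (0.0203) nearest, and Klrb1c had Pdlim5 (0.0216) and Rcc1 (0.0298). The ligand Clec2d was nearest to Pigf (0.0498) and H2-K2 (0.0573), and Clec2i to 4632427E13Rik (0.0404) and Lax1 (0.0445). No member was among the nearest genes of another. With 6 arrays and this many genes, close profiles are plentiful.

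The promoter windows of Klrb1a, Klrb1c and Klrb1f are shown because the first pair is the most alike in the family and the third belongs to the only member without overlap. Each window runs from 250 bases before to 50 after the gene's start in RefSeq (GRCm38.p6), 5′ to 3′ along the gene. They lie at chr6:128622885-128623184 (minus strand), chr6:128788592-128788891 (minus strand) and chr6:129045651-129045950 (plus strand). Capitals mark matches to the MYB motif, searched as CAACNG and TAACNG on both strands.
Klrb1a: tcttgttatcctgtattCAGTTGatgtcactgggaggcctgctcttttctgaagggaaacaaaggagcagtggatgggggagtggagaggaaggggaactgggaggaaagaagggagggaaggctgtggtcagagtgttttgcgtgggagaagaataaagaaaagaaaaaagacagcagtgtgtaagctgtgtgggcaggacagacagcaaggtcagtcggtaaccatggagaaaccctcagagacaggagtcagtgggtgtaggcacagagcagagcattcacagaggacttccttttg
Klrb1c: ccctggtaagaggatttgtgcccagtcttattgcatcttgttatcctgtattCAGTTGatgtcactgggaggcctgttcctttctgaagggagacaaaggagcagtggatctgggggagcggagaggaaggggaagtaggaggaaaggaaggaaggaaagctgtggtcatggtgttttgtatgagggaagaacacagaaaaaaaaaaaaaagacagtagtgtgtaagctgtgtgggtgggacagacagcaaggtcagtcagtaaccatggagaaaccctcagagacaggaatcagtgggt
Klrb1f: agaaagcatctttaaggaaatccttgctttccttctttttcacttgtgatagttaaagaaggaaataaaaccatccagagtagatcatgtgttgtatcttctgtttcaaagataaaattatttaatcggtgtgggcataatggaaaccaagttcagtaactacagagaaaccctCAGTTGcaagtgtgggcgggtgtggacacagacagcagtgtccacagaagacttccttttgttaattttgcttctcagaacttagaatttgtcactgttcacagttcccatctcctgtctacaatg
In a global alignment the Klrb1a and Klrb1c windows had 236 identical bases at 260 aligned positions, or 69.4% of all alignment columns with the gaps counted. The remaining 27 pairs among the 7 members and Klrb1 had between 38.4% and 57.5%, the highest being Klrb1b with Klrb1. Klrb1b, Klrb1f and Klrb1 were more alike (55% to 57.5%) than any of them was to Klrb1a or Klrb1c (38.4% to 44.8%). The 2 receptors with the most alike windows, Klrb1a and Klrb1c, each differed by 0.01 between the genotypes. Klrb1b, whose window was 44.8% and 43.8% identical to theirs, differed by -0.02. Klrb1f and Klrb1, whose windows were 55% and 57.5% identical to that of Klrb1b, differed by 0.27 and 0.55. A link between window and difference was not tested.

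**Figure D3:**
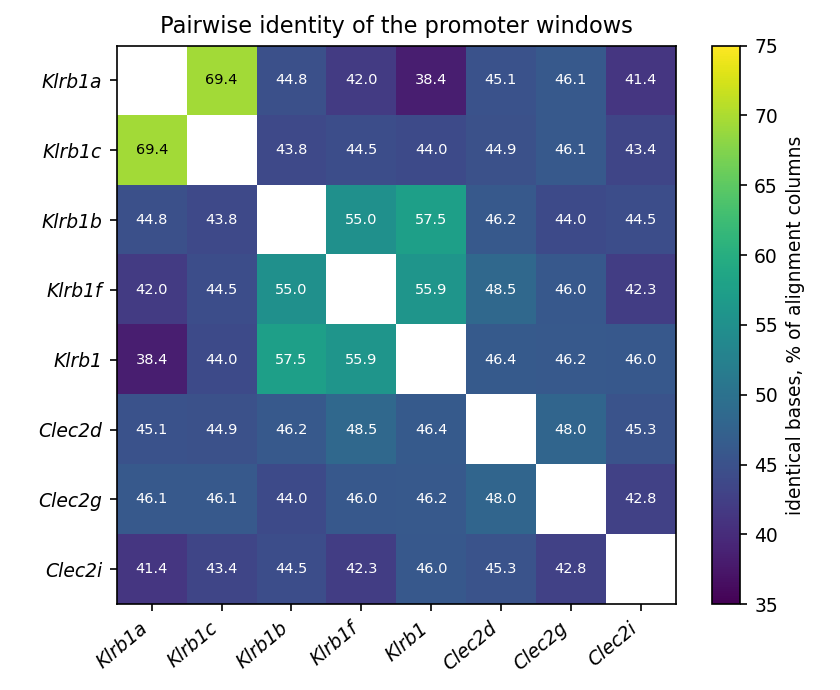
Identical bases as a percentage of alignment columns (colour and printed value) for each pair of 300-base promoter windows of the 7 members and Klrb1. Klrb1a with Klrb1c stands out at 69.4%, followed by the pairs among Klrb1b, Klrb1f and Klrb1 at 55% to 57.5%.

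The MYB motif was found in the windows of 5 of 7 members, and 49.7% of the 27025 windows in the table held it. In Klrb1a, Klrb1c and Klrb1f the match was CAGTTG, the reverse complement of a CAACNG form, beginning 233, 198 and 76 bases before the start. Klrb1b and Clec2g each had 1 match, and the windows of Clec2d and Clec2i held none of these letters. A match is a description of letters and does not show binding. Members with a match differed by -0.02 to 0.27 between genotypes and those without by 0.06 and 0.15.

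Of the other NKR-P1 and Clec2 genes listed none passed the threshold, and Klrb1 had the largest difference. The list held 11 symbols, of which 2, Klrb1d and Klrb1g, are older names of Klrb1b and Klrb1 in RefSeq's table, leaving 9. Under these 9 symbols 7 genes were measured, and 1, Klrb1, lay above background. RefSeq's table also gives Nkrp1e for Klrb1-ps1 and Nkrp-1e for Klrb1, so the unmeasured symbol Klrb1e need not be a further gene. Klrb1 encodes NKR-P1G, an inhibitory receptor for several Clr proteins. It read 6.39, 6.18 and 6.59 in the knockout and 5.73, 6.25 and 5.52 in the control. The genotypes overlapped through control array 2, which lay 0.07 above the lowest knockout array. The difference was 0.55 (SE 0.20, 95% interval 0.10 to 1.01), or 1.47-fold, and did not pass over all genes (unadjusted p = 0.0226, adjusted p = 0.999, limma). A difference at least as large was found in 1.06% of all genes. It was 0.76 without control array 2 (unadjusted p = 0.00257, adjusted p = 0.999 by limma) and 0.39 without control array 3.

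The remaining 6 genes of that list had means between 2.43 and 3.75, all under background, with differences from -0.12 to 0.29. They were the Clec2 genes Clec2e, Clec2h, Clec2l and Clec2m and the pseudogenes Clec2j and Klrb1-ps1. Clec2l and Clec2m are not among the genes listed from Klrb1a to Clec2d, and they are not taken as Clr genes here. Clec2h encodes Clr-f, a ligand of NKR-P1G, and differed by -0.11 (SE 0.15). Clec2l, whose p-value in the list came after that of Klrb1, differed by 0.29 (SE 0.21). Over the 7 genes 0 rose, 0 fell and 1 had an unadjusted p under 0.05 (limma), beside 3.47% of all genes. The median was 0.02. Arrays did not overlap for 0 of 7, beside 8.33% of all genes.

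None of the signalling partners of these receptors passed the threshold. Of 13 listed genes 12 were measured, 0 rose and 0 fell, and 0 had an unadjusted p under 0.05 (limma), beside 3.47% of all genes. The median was 0.00. Lck, a kinase that binds the tails of NKR-P1 receptors, had no probe set under that symbol alone. The adaptor Fcer1g read 11.4, 11.49 and 11.51 in the knockout and 11.39, 11.32 and 11.54 in the control. Its genotypes overlapped, with a difference of 0.05 (SE 0.13, 95% interval -0.25 to 0.35). The phosphatase gene Ptpn6 read 7.31, 7.41 and 7.26 in the knockout and 7.61, 7.61 and 7.16 in the control, with a difference of -0.13 (SE 0.16, 95% interval -0.49 to 0.23). The smallest p-values of the list were those of the adaptor Lat2 at -0.14 (SE 0.16), the lipid phosphatase Inpp5d at 0.13 (SE 0.16) and Ptpn6. Differences of both signs were equally common, at 6 and 6.

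None of the other lectin-like genes listed from the same complex passed the threshold. The list held no Ly49 (Klra) receptor gene, and that family is not described here. Of 17 measured genes 0 rose and 0 fell, with 0 unadjusted p-values under 0.05 (limma), beside 3.47% of all genes. The median was 0.05, with 12 positive and 5 negative differences, beside 9549 and 10389 over all genes and 5555 and 5337 over genes above background. The 10 genes of the list above background differed by -0.05 to 0.21, the highest being Klrc1, an inhibitory NKG2 receptor chain. Cd69, an activation marker encoded in the same complex, read 6.29, 6.21 and 6.56 in the knockout and 6.20, 6.54 and 6.48 in the control, with a difference of -0.05 (SE 0.16). The smallest p-values belonged to genes under background: the scavenger receptor Olr1 at 0.24 (SE 0.13), Clec1b at -0.30 (SE 0.16) and Clec12b at -0.36 (SE 0.21). Olr1 was the 1 gene of 17 without overlap, beside 8.33% of all genes, and its values lay between 2.13 and 2.45.

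**Figure D4:**
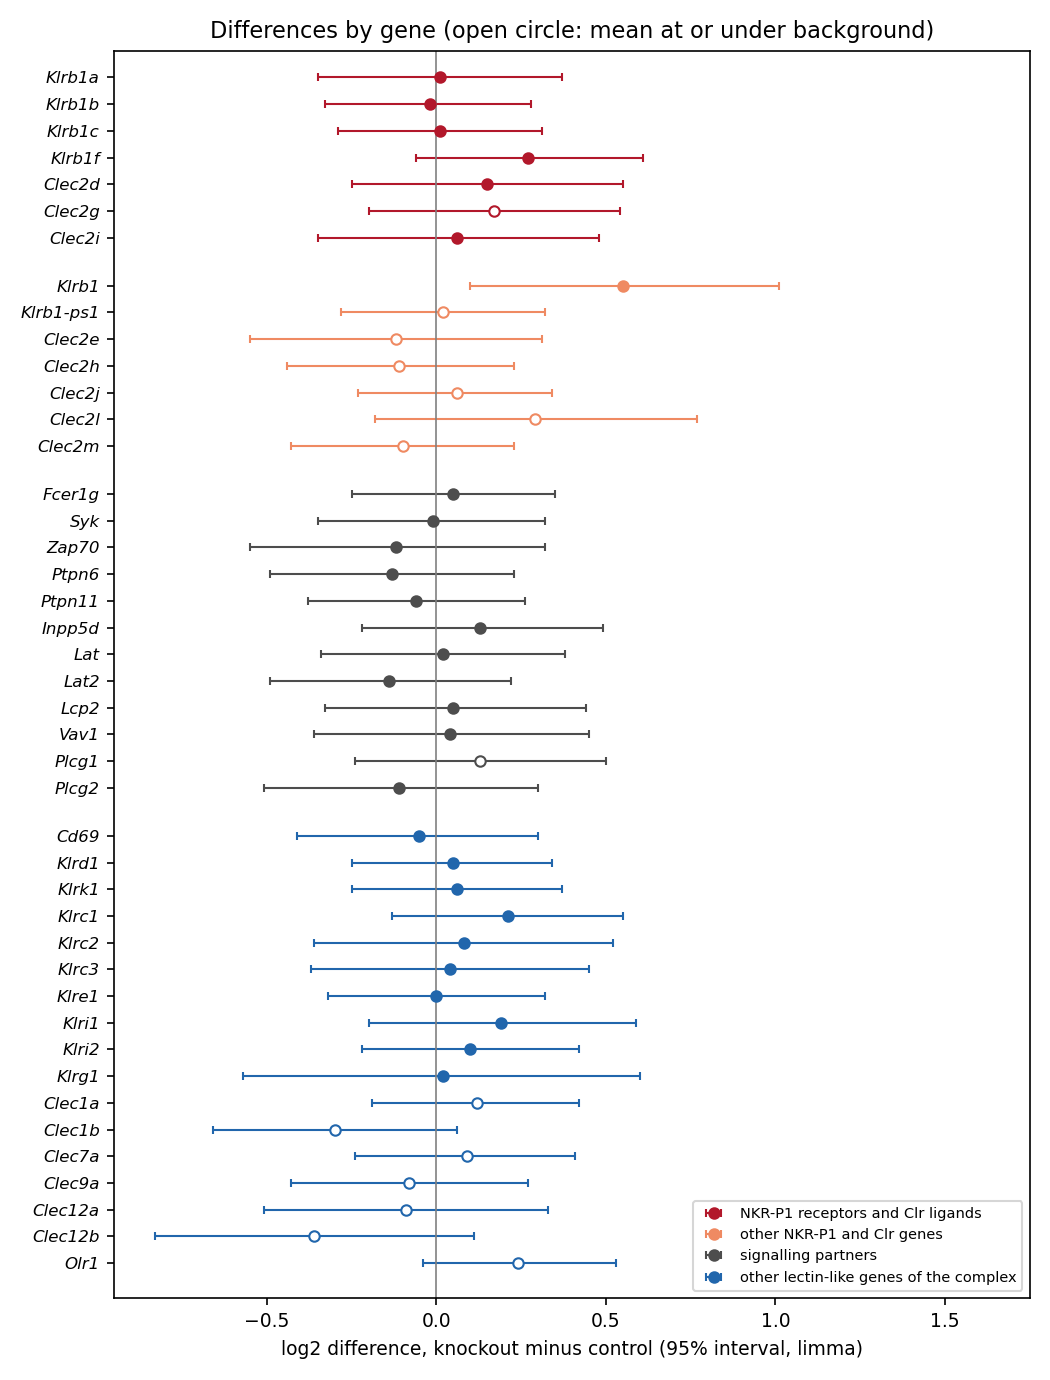
Log2 difference, knockout minus control, with 95% intervals from limma (horizontal axis) for each measured gene of the 4 lists, coloured by list, with open circles for genes whose mean is at or under the background level. Every interval crosses 0 except that of Klrb1 (0.10 to 1.01).

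The members' differences were computed under 15 alternatives, 6 of which left out 1 array. Under the other 9, which changed the scaling, the filter, the model or the probe sets, each member stayed within 0.03 of its value. Leaving out single arrays moved them further, by up to 0.19 for Clec2i, and the differences of Klrb1a, Klrb1b, Klrb1c, Clec2d and Clec2i each took both signs. Klrb1f was positive under all 15, between 0.16 and 0.37, and Clec2g under all 14 that included it, between 0.02 and 0.28. No member passed the adjusted threshold in any of these fits.

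**Figure D5:**
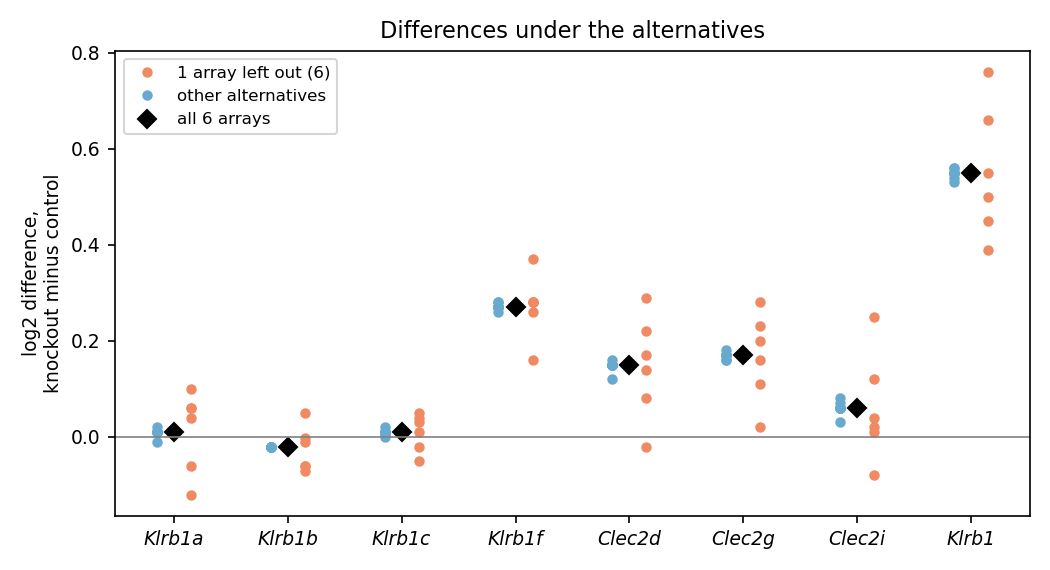
Log2 difference, knockout minus control (vertical axis), of the 7 members and Klrb1 with all 6 arrays (black diamonds), with 1 array left out (orange) and under the other alternatives (blue). The blue points lie close to the diamonds, and the orange points cross 0 for Klrb1a, Klrb1b, Klrb1c, Clec2d and Clec2i.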

How the data were processed

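The values deposited by the authors are on the log2 scale, from 0.74 to 13.6, for 35556 probe sets on 6 arrays. Both RMA and Partek 6.6 appear in the submitters' processing notes, with no role given for either. RMA compresses differences of dim probe sets. No genome build for the processing is given in the sources used. Arrays carry no read depth, and their number limits the precision.

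GEO's annotation of the platform gave 21789 probe sets 1 symbol and 1621 several, and did not list 12146. Each gene was represented by its brightest probe set, giving 19938 genes with no filter on dim ones. Genotypes were compared by a two-sided moderated test in limma 3.58.1 (R 4.3.3) with genotype as the only term, with Benjamini-Hochberg adjustment over all genes and a threshold of 0.05. The pipeline was tested on simulated data. Promoter windows were aligned with Biopython 1.88 (match 2, mismatch -1, gap opening -4, gap extension -0.5).

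The members, the lists and the background level were chosen with earlier results of these data known. Named genes are the 7 members, the 3 genes of each list with the smallest p, Fcer1g, Ptpn6, Lck and Cd69, the targeted genes Mir15a and Mir16-1, and the 2 nearest profiles of each member; Klrc1, the dim genes Clec2e, Clec2m, Clec2j and Klrb1-ps1, and single cell type markers were named outside this rule, after their values were seen. Mir16-1 differed by -0.63 (adjusted p = 0.999 by limma) with both means under background. Genotypes share replicate numbers, and same-numbered arrays had correlations of 0.048, 0.148 and 0.141 between their deviations from the genotype means, which does not settle a pairing, so that the fit without a block was kept. The alternatives were only brighter genes, array medians set equal, quantile normalization repeated, a replicate block, another variance prior, array weights, a sex-linked covariate, every probe set, the mean of a gene's probe sets and each array left out.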

Additional observations from a re-analysis of the deposited data

How the results depend on the processing

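In all 15 alternatives 0 of 7 members and 0 of the related genes passed the threshold, as with all 6 arrays. Member differences that changed sign were those of Klrb1a with a second quantile normalization (-0.01), of Klrb1c with array weights (-0.00042), and, with 1 array left out, of Klrb1a (range -0.12 to 0.10), Klrb1b (-0.07 to 0.05), Klrb1c (-0.05 to 0.05), Clec2d (-0.02 to 0.29) and Clec2i (-0.08 to 0.25). The arrays whose removal turned the sign were knockout 1 and control 2 for Klrb1a (-0.06 and -0.12) and Klrb1c (-0.05 and -0.02), control 2 for Klrb1b (0.05), control 1 for Clec2d (-0.02) and knockout 2 for Clec2i (-0.08). Klrb1f, Clec2g and Klrb1 kept their sign wherever tested, and Klrb1 ranged from 0.39 to 0.76. Clec2g was not tested among the brighter genes. Over all genes 4 passed with all arrays, between 2 and 3 with 1 array left out, and 2 with the sex-linked covariate; the cause was not tested.

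The replicate number as a block gave 3 genes over the whole table and changed no member's call, with Klrb1f at 0.27 (adjusted p = 0.999 by limma). Of the 6 arrays, 6 correlated best in their deviations with the array of their own number, a weak hint from the data and not the design. These are 3 pairs, each counted from both sides. For the arrays numbered 1 the margin was slight, at 0.048 beside 0.042 for knockout 1 with control 2 and 0.045 for knockout 3 with control 1. With 3 arrays a genotype, changes within the intervals given could not be seen, and larger ones may also miss the adjusted threshold. The intervals are for each gene alone. That of Klrb1 (0.10 to 1.01) lay above 0, at an adjusted p of 0.999 (limma).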
